A study of Mus musculus with 35 samples.

Results

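The populations of this study were profiled in 2 independent experiments, and the difference between those experiments is described here. Every population library whose label gives it as biological replicate 1 was set against the library labelled replicate 2 of the same construct and virus, which took in 20 of the 35 libraries of the series, 10 in experiment 1 and 10 in experiment 2. The other 15 libraries came from stable clones and entered no test. The cells were immortalized mouse embryonic fibroblasts (MEFs) that all carried a null and a floxed Nelfb allele (Nelfb f/-). Nelfb encodes a subunit of the negative elongation factor (NELF), which holds RNA polymerase II in a paused state shortly after it starts a transcript. Before infection the cells had received a lentiviral construct and were selected with G418 as mixed populations, so no population was a single clone. The construct was the empty vector (EV), wild-type NELFB (WT), MT194, MT486, or DMT, which carried both of these mutations. Each population was then infected with an adenovirus that expressed GFP (Ad-GFP) or Cre recombinase (Ad-Cre), which deletes the floxed allele, and RNA was taken 7 days later. This gave 10 combinations of construct and virus, each with 1 library in each experiment, called a pair here.

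Experiments run on separate occasions can differ in cell density, passage, serum, virus stock, harvest and library preparation, and none of these was recorded in the labels. Such a difference touches all samples of an occasion at once, so it can be separated from the construct and the virus here, because all 10 combinations were present in both experiments. The 10 pairs all compared the same pair of experiments, however. The p-values below therefore measure how evenly a difference recurred over the 10 pairs and say nothing of how other experiments would vary. Reads were poly(A)-selected, and 17969149 to 29080007 of them per library fell on the 24421 genes counted. Levels are given as CPM, a gene's count relative to all reads on genes, scaled by the trimmed mean of M-values (TMM).

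The targeted gene was examined first, as a check of the labels. With Ad-GFP the EV populations held 46.1 and 39.5 CPM of Nelfb in experiments 1 and 2, and with Ad-Cre they held 7.97 and 5.46 CPM. In the WT, MT194, MT486 and DMT populations Nelfb lay between 60.5 and 208 CPM with Ad-Cre, where reads of the construct and of the endogenous gene count alike. Both experiments thus showed the loss of Nelfb in the EV cells with Ad-Cre. Nelfb itself did not pass the test between experiments, with a log2 fold change of -0.12 (SE 0.07, adjusted p = 0.147, edgeR quasi-likelihood test, Benjamini-Hochberg), and it was higher in experiment 2 in 3 of 10 pairs.

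Of 13805 genes tested, 2624 were called higher in experiment 2 (19.0% of the genes tested) and 557 lower (4.03%), where a call needed an adjusted p under 0.05 in edgeR's quasi-likelihood test and a log2 fold change over 0.5 in size. Secreted, membrane and endoplasmic reticulum (ER) proteins and several nuclear long noncoding RNAs were among those called higher, and the ferritins and part of the interferon-stimulated genes, clustered histones, ubiquitin-conjugating enzymes and ribosomal protein genes were among those called lower. Calls with the same direction in all 10 pairs numbered 2452 (17.8% of the genes tested), of which 2006 were higher and 446 lower. A same direction in all 10 pairs was seen for 6400 genes in all, called or not (46.4%), split into 3145 higher and 3255 lower. The median log2 fold change of all genes tested was -0.01, a centre that the TMM scaling sets. A log2 fold change over 1 was reached by 145 called genes that were higher and 6 that were lower. With no size threshold 4814 genes passed the adjusted p as higher and 5053 as lower, so the lean towards higher calls depended on that threshold.

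**Figure D1:**
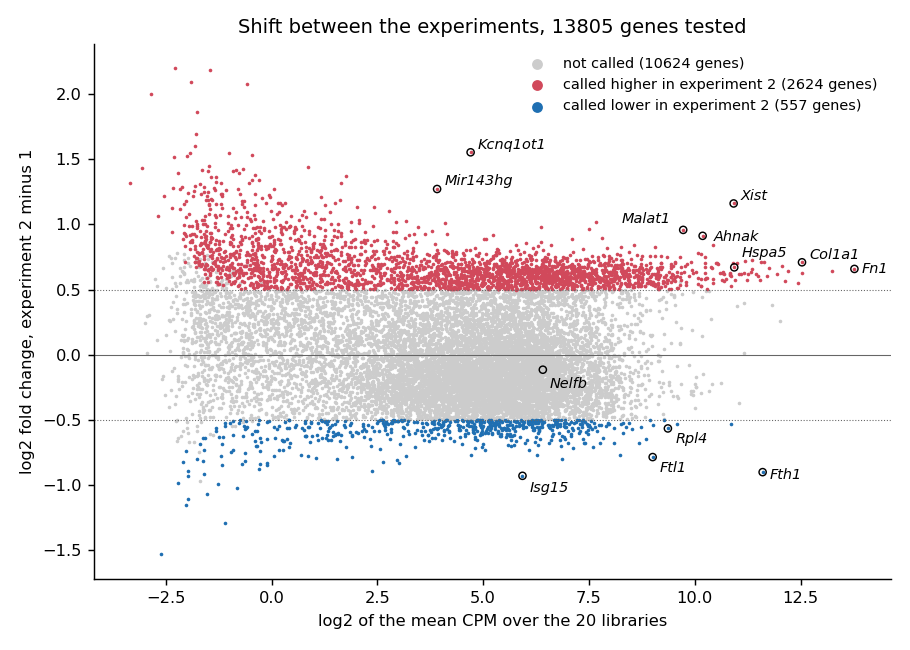
Each point is a gene, with the log2 of its mean CPM over the 20 libraries on the x axis and its log2 fold change, experiment 2 minus experiment 1, on the y axis. Red points are the 2624 genes called higher in experiment 2, blue points the 557 called lower, grey points the genes not called, and dotted lines mark the fold-change threshold of 0.5 on the log2 scale.

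Over the 20 libraries the experiments formed the second axis of variation. The first principal component held 39.7% of the variance and separated the viruses, and the second held 25.9% and ordered the libraries by experiment. On the second component the experiment 1 libraries lay between 16.6 and 31.1 and those of experiment 2 between -34.2 and 1.16, without overlap. The WT library with Ad-Cre of experiment 2, at 1.16, and the WT library with Ad-GFP, at -14.5, lay nearest to experiment 1. Of the total sum of squares, construct and virus took 62.1%, the experiment 23.6% and the rest 14.2%, so the experiment held 62.4% of the variation within groups. The biological coefficient of variation, the spread of a gene between replicates beyond counting noise, was 0.202 without a term for the experiment and 0.0877 with it.

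**Figure D2:**
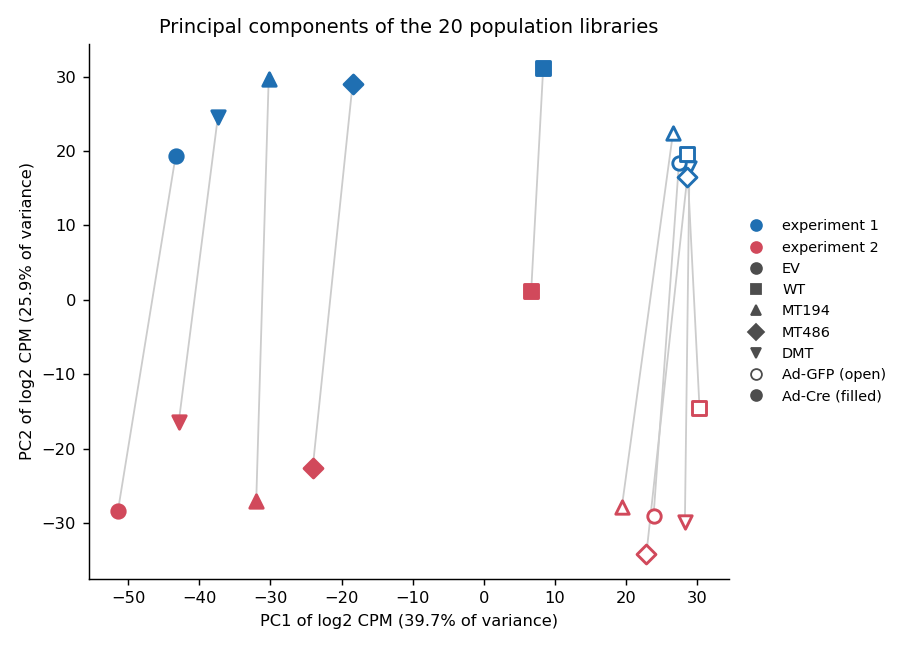
Principal components of log2 CPM for the 20 population libraries, PC1 (39.7% of variance) on the x axis and PC2 (25.9%) on the y axis, with marks for construct, virus and experiment. The experiments separate along PC2, and the WT libraries of experiment 2 lie nearest to those of experiment 1.

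Genes of protein folding in the ER were mostly called higher. The ER folds and modifies proteins that are bound for the membrane or for secretion, and cells answer a heavy load of unfolded protein by raising its chaperones, the unfolded protein response. Part of that response runs through ATF6 and XBP1, which act at ER stress response elements made of CCAAT and CCACG set 9 bases apart. In the list of 21 unfolded protein response genes tested, 17 were called higher (81.0%) and 0 lower, against 19.0% and 4.03% of all genes. The list's median log2 fold change was 0.62. The median was above 0 in 10 of 10 pairs, from 0.39 to 0.85, against a median of -0.01 for all genes tested.

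The promoters of these genes are shown because the called members of the list often held the element. Promoters came from RefSeq (build GRCm38.p6), which had one for 20 of the 22 genes of the list, and the 250 bases before each start were searched on both strands for CCAAT, any 9 bases and CCACG. Capitals mark both parts of the element, or of its reverse complement (CGTGG and ATTGG) where it lay on the opposite strand. The sequences are written 5′ to 3′ on the strand of the gene, and the ranges are in GRCm38.
Hspa5, chr2:34772020-34772048, plus strand: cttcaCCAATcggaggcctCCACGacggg
Canx, chr11:50325795-50325823, minus strand: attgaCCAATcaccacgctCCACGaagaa
Pdia6, chr12:17266486-17266514, plus strand: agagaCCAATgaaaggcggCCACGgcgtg
Syvn1, chr19:6046527-6046555, plus strand: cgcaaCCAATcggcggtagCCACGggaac
Calr, chr8:84847070-84847098, minus strand: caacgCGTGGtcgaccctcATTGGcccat
Creld2, chr15:88819515-88819543, plus strand: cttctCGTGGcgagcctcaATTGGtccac
The element was found in 35 of 27025 promoters (0.13%), in 15 of the 10349 tested genes with a promoter (0.145%), and in 8 of 19 tested genes of the list (42.1%). The share in the list reflects which genes were listed and does not bear on the difference between experiments. Of the 15 tested genes that held it, 11 were called higher and 0 lower, but 8 of the 11 were the called members of the list whose promoters prompted the search. Outside the list 3 of 7 were called higher, against 19.0% of all genes. A match of letters is not a measured binding site, and binding was not measured in these libraries.

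Hspa5 encodes BiP, the main chaperone of the ER, and lies at chr2:34771970-34777547 on the plus strand in GENCODE M21, whose earliest start for this gene lies before the RefSeq start used for the promoter. Its lowest, median and highest levels were 1358, 1420 and 1755 CPM in experiment 1 and 1858, 2311 and 3191 CPM in experiment 2. The experiments did not overlap, and the log2 fold change was 0.67 (SE 0.06, adjusted p = 2.15e-08, edgeR quasi-likelihood test, Benjamini-Hochberg). Calr, which encodes the lectin chaperone calreticulin, ran from 1693 to 1931 CPM (median 1800) in experiment 1 and from 2433 to 3512 CPM (median 2709) in experiment 2. All experiment 2 libraries again lay above all those of experiment 1, with a log2 fold change of 0.63. Hspa5 and Calr were chosen after their values were seen, as were Canx and Hsp90b1, further chaperones whose log2 fold changes were 0.59 and 0.62 in edgeR's fit with no overlap between experiments.

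Enzymes of the same compartment showed the same separation. Syvn1, which encodes the ubiquitin ligase Hrd1 of ER-associated degradation (chr19:6046576-6053712), was at 80.2, 88.8 and 92.5 CPM (lowest, median, highest) in experiment 1 and at 120, 146 and 157 CPM in experiment 2. Its log2 fold change was 0.73 (SE 0.04, adjusted p = 1.64e-09, edgeR quasi-likelihood test, Benjamini-Hochberg). Pdia6, a protein disulfide isomerase (chr12:17266545-17284770), rose from a median of 329 CPM to one of 517 CPM, and Creld2, an ER-resident protein (chr15:88819646-88826683), from 47.7 to 77.6 CPM, both without overlap. All 4 protein disulfide isomerases with a Pdia symbol were called higher (against 19.0% of all genes), with a median log2 fold change of 0.65. For the oligosaccharyltransferase and signal peptidase, which add glycans to new chains and cut their signal peptides, 7 of 12 subunits were called higher (58.3%). None was called lower, against 4.03% of all genes.

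The other arm of ER stress, which runs through ATF4, had calls in both directions among its targets. Atf4, which encodes the transcription factor made when translation is held back, had a log2 fold change of -0.34 and was lower in 10 of 10 pairs, and Ddit3, which encodes CHOP, had -0.26 and was higher in 1 of 10 pairs. Both passed the adjusted p in edgeR's test (3.78e-06 and 9.22e-05) but not the size threshold. Xbp1, which encodes a transcription factor of the chaperone arm, lay just under the size threshold and was not called, and it was higher in 10 of 10 pairs. Of the 33 ATF4 and amino acid response genes tested, 7 were called higher (21.2%) and 2 lower (6.06%), with a median of -0.19, and these shares were near the 19.0% and 4.03% of all genes. The 7 were Slc7a3, Slc7a5, Slc7a11, Slc3a2 and Slc1a4, which encode amino acid transporters of the plasma membrane, Stc2, which encodes a secreted glycoprotein, and Vldlr, a membrane receptor, while Chac1 and Nupr1, which encode a cytosolic enzyme and a nuclear protein, were called lower. In the Ad-GFP libraries fitted alone Slc7a11, Stc2 and Vldlr lost their calls, at 0.41, 0.29 and 0.45, and Slc7a11 also lost it without either library of the DMT pair with Ad-Cre (0.48 both times), with MT486 left out (0.495) and with construct and virus as additive terms (adjusted p = 0.0848, edgeR).

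Within the translocation machinery of the ER the members differed in direction. Sec61a1, the channel subunit of the translocon, was at 354, 483 and 530 CPM (lowest, median, highest) in experiment 1 and at 558, 682 and 799 CPM in experiment 2, with a log2 fold change of 0.62. The small subunit Sec61b had a log2 fold change of -0.37 and was lower in 10 of 10 pairs, without reaching a call, and Serp1, a small membrane protein of the same machinery, was called lower at -0.64. Serp1 ran from 251 to 308 CPM in experiment 1 and from 149 to 246 CPM in experiment 2, without overlap. These genes were chosen after their values were seen.

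The extracellular matrix was the list with the largest share of calls. Fibroblasts make and remodel the matrix, a network of collagens, fibronectin and proteoglycans around cells. Of 38 collagen and matrix genes tested, 32 were called higher (84.2%) and 0 lower, against 19.0% and 4.03% of all genes. The list had a median log2 fold change of 0.64 and a median above 0 in 10 of 10 pairs. Col1a1, which encodes a chain of type I collagen (chr11:94936224-94953042), ran from 3148 to 5648 CPM (median 5118) in experiment 1 and from 4951 to 8539 CPM (median 7546) in experiment 2. The ranges overlapped through the Ad-Cre libraries, which started lower, although Col1a1 was higher in experiment 2 in 10 of 10 pairs, and its log2 fold change was 0.71 (SE 0.09, adjusted p = 1.66e-06, edgeR quasi-likelihood test, Benjamini-Hochberg). With an offset for the GC content and length of genes its value was 0.48, and the call was lost.

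Some matrix genes had larger differences. Postn, which encodes the matricellular protein periostin (chr3:54361109-54391037), was at 5.09, 9.99 and 20.1 CPM (lowest, median, highest) in experiment 1 and at 10.4, 20.4 and 42.1 CPM in experiment 2. That was a log2 fold change of 1.01, from 0.39 in the EV pair with Ad-GFP to 1.84 in the MT486 pair with Ad-Cre. Fmod and Prelp, which encode small leucine-rich proteoglycans that bind collagen, had log2 fold changes of 1.02 and 0.98, with the highest pair value of each, 2.10 and 1.62, in the MT194 pair with Ad-Cre. Col12a1 and Col5a3, collagen chains that decorate or start fibrils, had 0.79 and 0.78. Fn1 (fibronectin), chosen after its values were seen, had medians of 9716 and 15077 CPM and a log2 fold change of 0.66.

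Enzymes that cut the matrix and their inhibitors moved alongside, with 20 of 24 called higher (83.3%), 0 lower and a median of 0.58. All genes tested had 19.0% called higher and 4.03% lower. Mmp2, a gelatinase (chr8:92827291-92853420), was at 1113, 1589 and 1693 CPM in experiment 1 and at 1985, 2278 and 3364 CPM in experiment 2, given as lowest, median and highest. The experiments did not overlap, and its log2 fold change was 0.70 (SE 0.08, adjusted p = 6.45e-07, edgeR quasi-likelihood test, Benjamini-Hochberg). Mmp11, another matrix metalloproteinase, and Plat, the tissue plasminogen activator, had 0.67 and 0.69. Of 33 ADAM and ADAMTS proteinases, which shed or trim proteins at the cell surface and in the matrix, 27 were called higher and 0 lower. Their share of 81.8% called higher stood against the 19.0% of all genes.

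Hydrolases and membrane proteins of the lysosome, which also enter through the ER, formed a further group. Of 27 lysosome and autophagy genes tested, 17 were called higher (63.0%) and 2 lower (7.41%), with a median of 0.57. Of all genes, 19.0% were called higher and 4.03% lower. Ctsd, which encodes cathepsin D (chr7:142375911-142388038), ran from 1374 to 2477 CPM (median 2114) in experiment 1 and from 2485 to 4301 CPM (median 3210) in experiment 2, with the ranges just apart. The log2 fold change of Ctsd was 0.66 over all pairs, 0.44 with Ad-GFP and 0.88 with Ad-Cre, a difference that did not pass the test (adjusted p = 0.123, edgeR quasi-likelihood test, Benjamini-Hochberg). In the Ad-GFP libraries fitted alone the call of Ctsd was lost, at 0.45. Neu1, a lysosomal sialidase, had 0.72 and Ctsz, cathepsin Z, 0.66.

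**Figure D3:**
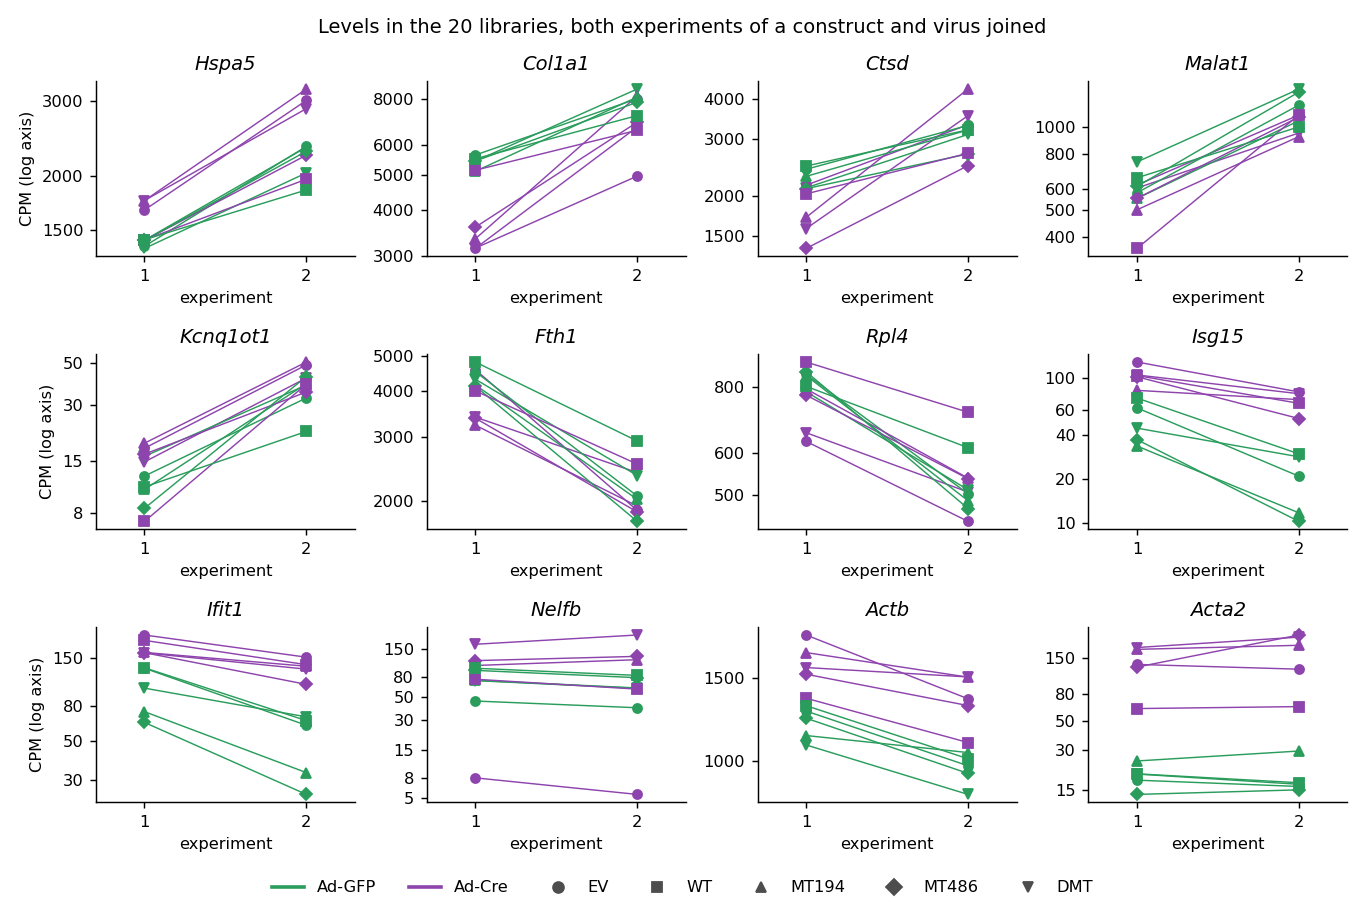
CPM of 12 genes in the 20 libraries (log y axes), experiment 1 at left and experiment 2 at right in each panel, with a line joining the libraries of a construct and virus (green, Ad-GFP, and purple, Ad-Cre). Hspa5, Ctsd, Malat1, Kcnq1ot1 and Fth1 show no overlap between experiments, while Nelfb and Acta2 differ more between groups than between experiments.

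Families taken by gene symbol were chosen after the list values were seen and are given as counts, with no test between families. Solute carriers, which move ions, sugars and amino acids across membranes, had 142 of 201 members called higher (70.6%, against 19.0% of all genes) and 1 lower, with a median log2 fold change of 0.59. Cadherins and protocadherins, adhesion proteins, had 36 of 56 called higher, ephrins and their receptors 13 of 16, semaphorins and plexins 18 of 27, integrins 12 of 22, and genes named only as transmembrane proteins (Tmem) 88 of 177. No member of these families other than 1 solute carrier and 2 Tmem genes was called lower. The mitochondrial carriers, solute carriers of the inner mitochondrial membrane counted apart, had 3 of 41 called higher, 0 lower and a median of -0.09. Zinc finger proteins, nuclear factors of the Zfp symbol, had 9 of 312 called higher, 1 lower and a median of 0.003.

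Single membrane genes were among the most even. Slc5a3, a sodium and inositol cotransporter (chr16:92058322-92087473), was at 93.4, 121 and 146 CPM in experiment 1 and at 183, 233 and 304 CPM in experiment 2. Its log2 fold change was 0.96 (SE 0.05, adjusted p = 1.64e-09, edgeR quasi-likelihood test, Benjamini-Hochberg), with no overlap. Slc38a9, an arginine sensor and transporter of the lysosome, had 0.95, also without overlap. Igf1r and Insr, the receptors for insulin-like growth factor and insulin, were chosen after their values were seen and had 0.83 and 0.69 without overlap. All 5 tested genes of the insulin-like growth factor binding proteins (Igfbp) were called higher, against 19.0% of all genes, with a median of 0.64.

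Of 30 hypoxia and glycolysis genes tested, 9 were called higher and 1 lower, against 19.0% and 4.03% of all genes, although the list's median was -0.23. Called higher were Slc2a1 and Slc2a3, glucose transporters, Vegfa and Adm, which encode secreted peptides, P4ha1, P4ha2 and Ero1l, enzymes of the ER, Car9, a membrane carbonic anhydrase, and Gapdh, a glycolytic enzyme. The call of Adm was lost in the Ad-GFP libraries fitted alone, at 0.43. Bnip3, a mitochondrial protein of mitophagy, was the gene called lower. Gapdh held between 2.48 and 12.3 CPM in the 20 libraries. The filter on mapping quality can remove reads that also match its many processed copies, so the value of Gapdh is uncertain. Wnt and Notch genes had 10 of 23 called higher (43.5%) and 1 lower (Sfrp1 and Sfrp2, secreted Wnt antagonists, had 0.65 and 0.67, and the receptor Notch3 had 0.65). The call of Notch3 was lost with GC and length offsets, at 0.37, and those of Sfrp1 and Sfrp2 in the Ad-GFP libraries fitted alone, at 0.47 and 0.40. The TGF-beta and BMP list had 8 of 25 called higher (32.0%) and 1 lower, against 19.0% and 4.03% of all genes.

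Chemokines and antigen presentation also contained called genes. Of 31 chemokine and NF-kB response genes, 8 were called higher (25.8%, against 19.0% of all genes) and 1 lower, with a median of 0.37. Csf1, the macrophage growth factor, had medians of 417 and 607 CPM and a log2 fold change of 0.71, and Cx3cl1, a membrane-bound chemokine, had 0.72. Il33, an alarmin kept in the nucleus without a signal peptide, was called lower at -0.73 and was lower in 10 of 10 pairs. Of 16 genes of MHC class I and antigen processing, 7 were called higher (43.8%, against 19.0% of all genes) and 0 lower over all pairs, with a median above 0 in 8 of 10 pairs. The Ad-Cre pairs gave 8 called higher and 0 lower, with a median of 0.54, and the Ad-GFP pairs 0 higher and 3 lower, with 0.22. Of the 16 genes, 1 passed the test of the difference between viruses, and the list as a whole was not tested for it. H2-K1 and H2-D1, the class I heavy chains, had 0.60 and 0.63, and their pair values ran from 0.01 to 1.72 and from 0.04 to 1.55, both highest in the MT194 pair with Ad-Cre. Without either library of that pair the call of H2-K1 was lost, at 0.47. Both H2-K1 and H2-D1 lost their calls in the Ad-GFP libraries fitted alone, at 0.22 and 0.33. With no term for construct and virus both lost them too (adjusted p = 0.0737 and 0.126, edgeR). The shifts of H2-K1 and H2-D1 were 0.21 and 0.33 with Ad-GFP and 0.99 and 0.93 with Ad-Cre. These differences between viruses did not pass the test (adjusted p = 0.0690 and 0.176, edgeR quasi-likelihood test, Benjamini-Hochberg). Since H2-K1, H2-D1 and their relatives are near-identical, the split of reads between them is uncertain.

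**Figure D4:**
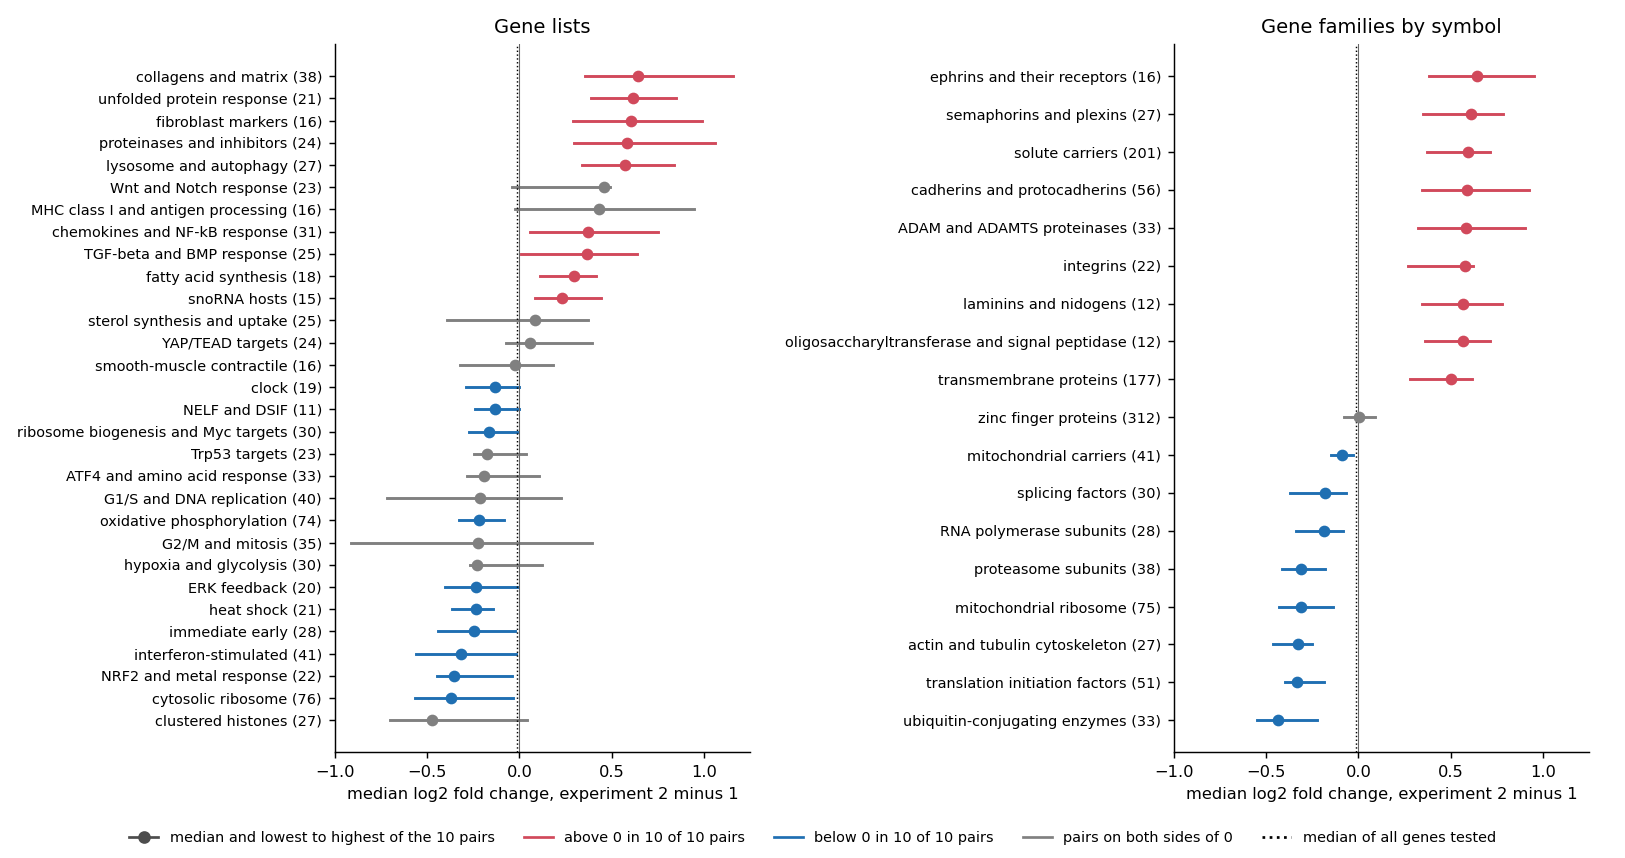
Median log2 fold change, experiment 2 minus experiment 1, of each gene list (left) and each symbol family (right) with 10 or more genes tested, with a bar from the lowest to the highest of the 10 pair medians. Lists of matrix, proteinase, unfolded protein response and lysosome genes lie above 0 in 10 of 10 pairs, and those of the cytosolic ribosome and interferon-stimulated genes below 0 in 10 of 10 pairs.

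The 3 largest log2 fold changes among the genes named by rule were those of the long noncoding RNAs Kcnq1ot1, Mir143hg and Xist. Kcnq1ot1, the antisense RNA that silences an imprinted domain (chr7:143203458-143296549, minus strand), was at 7.20, 13.7 and 18.7 CPM in experiment 1 and at 21.6, 38.7 and 50.5 CPM in experiment 2. The log2 fold change of Kcnq1ot1 was 1.55 (SE 0.14, adjusted p = 1.22e-06, edgeR quasi-likelihood test, Benjamini-Hochberg). Since the strand setting of the counting was not stated, reads of Kcnq1ot1 and of Kcnq1, which it overlaps, may not be told apart. Xist, which coats the inactive X chromosome (chrX:103460366-103483254), ran from 879 to 1458 CPM (median 1238) in experiment 1 and from 1954 to 3196 CPM (median 2682) in experiment 2, a log2 fold change of 1.16. Malat1, a nuclear speckle RNA (chr19:5795690-5802672), ran from 364 to 749 CPM (median 591) and then from 926 to 1377 CPM (median 1099), a log2 fold change of 0.96. The experiments did not overlap in Kcnq1ot1, Xist or Malat1.

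Long noncoding genes had a larger share of higher calls than protein-coding genes, a difference that was not tested. Of 544 long noncoding genes tested, 154 were called higher (28.3%) and 22 lower, with a median of 0.19, against 18.2% called higher and a median of -0.02 for protein-coding genes. The raised share was not particular to them. Genes of other annotated types had 90 of 217 called higher (41.5%) and a median of 0.47. Genes without an annotated type had 31 of 102 called higher (30.4%). Mir143hg, host of the miR-143 and miR-145 hairpins, had a log2 fold change of 1.27, with overlapping ranges. Among RNAs chosen after their values were seen, Meg3, Firre and Dnm3os were higher in 10 of 10 pairs, with 0.89, 0.82 and 0.85 (Dnm3os is antisense to Dnm3, so its reads are uncertain in the same way as those of Kcnq1ot1), and Neat1, the scaffold of paraspeckles, in 9 of 10, with 0.84. Host genes of small nucleolar RNAs had 4 of 15 called higher (26.7%, against 19.0% of all genes and the 28.3% of long noncoding genes), among them Gas5, with 0.75. Ahnak, a protein-coding gene with a very long exon and chosen after its values were seen, ran from 587 to 1020 CPM and then from 1051 to 2203 CPM, a log2 fold change of 0.91.

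**Figure D5:**
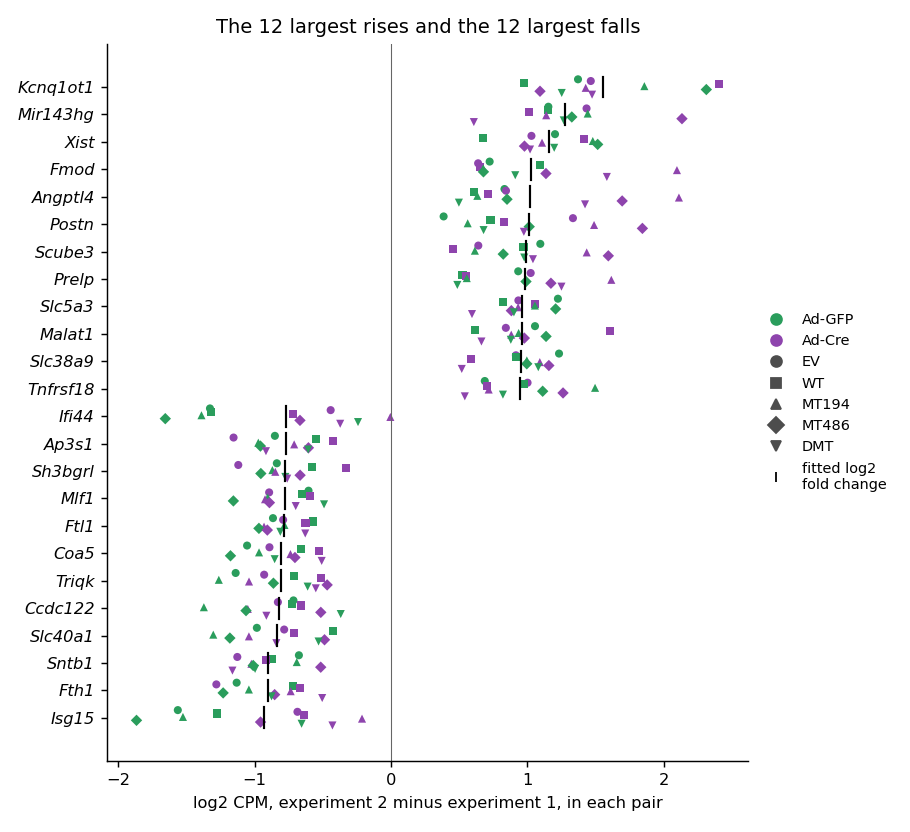
Difference in log2 CPM, experiment 2 minus experiment 1, in each of the 10 pairs (green, Ad-GFP, and purple, Ad-Cre, with a symbol for each construct) for the 12 called genes with the largest log2 fold change in each direction, with a black tick at the fitted value. All pairs of a gene lie on the same side of 0, which the choice of the genes required, and Ifi44 in the MT194 pair with Ad-Cre lies closest to it.

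Among the genes lower in experiment 2 the ferritins had some of the largest differences. Ferritin, built of heavy and light chains, stores iron in the cytosol, and iron-regulatory proteins hold back ferritin translation and keep the transferrin receptor mRNA stable when iron is scarce. Fth1, the heavy chain (chr19:9980598-9985098), was at 3231, 4149 and 4811 CPM in experiment 1 and at 1761, 2045 and 2923 CPM in experiment 2. The experiments did not overlap, and the log2 fold change of Fth1 was -0.90 (SE 0.08, adjusted p = 2.09e-08, edgeR quasi-likelihood test, Benjamini-Hochberg). Ftl1, the light chain, had -0.79, and Slc40a1, the iron exporter ferroportin, had -0.83, both lower in 10 of 10 pairs. Tfrc, the transferrin receptor, chosen after its values were seen, was called higher at 0.56. Both ferritins have many near-identical copies in the genome, whose reads the mapping filter can remove, so their values are uncertain.

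Other genes of the same list had smaller differences. The list of NRF2 and metal response genes had 2 of 22 called higher, 2 lower (9.09% each way, against 19.0% and 4.03% of all genes) and a median of -0.35, and the 2 called lower were the ferritins. The metallothionein Mt1 had -0.49 and was lower in 10 of 10 pairs, and Hmox1, the heme oxygenase that frees iron, had -0.33 and was lower in 9 of 10, neither of them called. The calls higher in this list were Slc7a11 and Slc30a1, transporters for cystine and zinc, the former with the losses given for it above.

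Some of the interferon-stimulated genes, many of which restrict viruses, were called lower in experiment 2. Of 41 tested, 11 were called lower (26.8%) and 0 higher, against 4.03% and 19.0% of all genes, with a median of -0.32 and a median below 0 in 10 of 10 pairs. For the Ad-GFP pairs 16 were called lower and for the Ad-Cre pairs 3, with medians of -0.38 and -0.23. Isg15, which encodes a ubiquitin-like modifier (chr4:156199424-156200818), was at 33.8, 77.2 and 129 CPM in experiment 1 and at 10.2, 41.1 and 79.9 CPM in experiment 2. The ranges overlapped, since Isg15 was higher with Ad-Cre than with Ad-GFP in both experiments, and its log2 fold change was -0.93 (SE 0.16, adjusted p = 0.000316, edgeR quasi-likelihood test, Benjamini-Hochberg). Pair values of Isg15 ran from -1.87 in the MT486 pair with Ad-GFP to -0.21 in the MT194 pair with Ad-Cre. Ifit1, an RNA-binding restriction factor, had -0.71, with -1.02 for the Ad-GFP pairs and -0.41 for the Ad-Cre pairs, and this difference between viruses passed the test (adjusted p = 0.0245, edgeR quasi-likelihood test, Benjamini-Hochberg). The call of Ifit1 was lost in the Ad-Cre libraries fitted alone, at -0.41. With no term for construct and virus the calls of Ifit1 and Isg15 were lost (adjusted p = 0.0927 and 0.0711, edgeR). Bst2, a membrane protein of the list, had 0.23 and did not pass the test.

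Genes of the cytosolic ribosome and of other cytosolic machines had medians below 0. Of 76 ribosomal protein genes tested, 13 were called lower (17.1%) and 5 higher (6.58%), against 4.03% and 19.0% of all genes, with a median of -0.37, from -0.57 to -0.03 over the pairs. For the Ad-GFP pairs 34 were called lower and for the Ad-Cre pairs 4, with medians of -0.47 and -0.25. Rpl4, a protein of the large subunit (chr9:64173375-64178666), ran from 631 to 892 CPM (median 798) in experiment 1 and from 445 to 717 CPM (median 508) in experiment 2, a log2 fold change of -0.57. The call of Rpl4 was lost with GC and length offsets, at -0.499, and in the Ad-Cre libraries fitted alone, at -0.45. The 5 called higher included Rpl10a and Rpl24, at 0.63 and 0.80, and as most ribosomal protein genes have many processed copies, the values of single genes are uncertain. Proteasome subunits had 0 of 38 called either way and a median of -0.31, CCT chaperonin subunits 0 of 8 and -0.31, and translation initiation factors 7 of 51 called lower (13.7%), 1 higher and -0.33. Mitochondrial ribosome genes had 4 of 75 called lower (5.33%, near the 4.03% of all genes) and -0.31, and ubiquitin-conjugating enzymes 8 of 33 called lower (24.2%) and -0.44. Sh3bgrl, a small cytosolic protein, and Coa5, a mitochondrial assembly factor, both without overlap between experiments, had log2 fold changes of -0.77 and -0.81. Ybx1, an mRNA-binding protein chosen after its values were seen, had -0.71.

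Clustered histone genes, whose mRNAs mostly lack a poly(A) tail and are therefore caught in traces by this preparation, were low throughout, with a summed median level of 115 CPM in experiment 1 and 81.8 CPM in experiment 2. Of 27 tested, 9 were called lower (33.3%, against 4.03% of all genes) and 0 higher. Hist1h1c, a linker histone with the highest CPM of the list, had a log2 fold change of -0.70 and was lower in 10 of 10 pairs. Because copies of a histone class are near-identical, single histone genes are uncertain too.

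Several lists gave few called genes or none. Smooth-muscle contractile genes (16 tested), circadian clock genes (19), heat shock genes (21) and ribosome biogenesis genes (30) had 0 calls in either direction, with medians of -0.02, -0.13, -0.23 and -0.17. The clock, heat shock and ribosome biogenesis medians were below 0 in 10 of 10 pairs. Of the 21 heat shock genes, 12 were lower in 10 of 10 pairs, so a lack of calls does not mean a lack of shift. The 74 nuclear-encoded genes of oxidative phosphorylation had 3 called higher (4.05%, under the 19.0% of all genes) and 4 lower (5.41%, near the 4.03% of all genes). Their median was -0.22 and was below 0 in 10 of 10 pairs. In 10 of 10 pairs 39 of the 74 were lower and 2 higher, against 3255 lower and 3145 higher of all 13805 genes. Fatty acid synthesis had 3 of 18 called higher (16.7%, against 19.0% of all genes), among them Srebf1, the transcription factor of the pathway, at 0.60, whose call was lost with GC and length offsets at 0.41. Sterol synthesis had 3 of 25 called lower (against 4.03% of all genes), Idi1, Stard4 and Hmgcs1, at -0.70, -0.63 and -0.53, although its median was 0.26 with Ad-GFP and -0.17 with Ad-Cre. Hmgcs1 lost its call without either library of the MT194 or the DMT pair with Ad-Cre, at -0.47 and -0.48. It also lost it in the Ad-GFP libraries fitted alone, at -0.35, and with GC and length offsets, at -0.499. Idi1 lost it in the Ad-Cre libraries fitted alone (adjusted p = 0.0723, edgeR). With construct and virus as additive terms Hmgcs1 and Idi1 lost it (adjusted p = 0.0807 and 0.0665, edgeR), and with no group term Idi1, Stard4 and Hmgcs1 did. Fasn, the fatty acid synthase, had -0.05 and did not pass the test (adjusted p = 0.275), nor did Acta2, smooth-muscle actin, at 0.11 (adjusted p = 0.314, edgeR quasi-likelihood test, Benjamini-Hochberg). Cdkn1a, the cyclin-dependent kinase inhibitor p21, had -0.28 (adjusted p = 0.0430), and Actb, often used as a reference, had -0.28 and was lower in 10 of 10 pairs. Of the other NELF subunits, Nelfa and Nelfe had -0.27 and -0.33 and were lower in 10 of 10 pairs (adjusted p = 1.09e-05 and 4.89e-06 in edgeR's test), Nelfcd had -0.10, and none reached the size needed for a call.

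The shift was not of equal size in every construct and virus. The slope of a pair's log2 differences on the mean of the other 9 pairs, over all genes tested, was 0.671 for WT with Ad-GFP and 0.598 for WT with Ad-Cre, 0.807 for DMT with Ad-Cre and between 0.974 and 1.14 for the others. The genes called higher had a median difference of 0.43 and 0.40 in the WT pairs and between 0.60 and 0.84 in the other 8. Direction was shared more than size, since between 94.1% and 98.3% of the called genes had the called direction in each pair, WT included. These shares describe genes chosen over the same pairs. In the test of whether any gene's shift differed between the 5 constructs, 0 genes passed (0% of the genes tested) in edgeR's quasi-likelihood test, 596 had an unadjusted p under 0.05, and DESeq2's likelihood ratio test also called 0. A p that misses the threshold does not show that the shifts were equal.

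The viruses were compared in the same way. In the fit of all 20 libraries, 3122 genes were called between experiments for the Ad-GFP pairs (22.6% of the genes tested), 2279 higher and 843 lower. For the Ad-Cre pairs 3094 were called (22.4%), 2430 higher and 664 lower. Unfolded protein response genes had a median of 0.61 in both arms, with 17 of 21 called higher in each. Collagen and matrix genes had medians of 0.51 with Ad-GFP and 0.78 with Ad-Cre, with 21 and 34 of 38 called higher. Whether these lists, or the ribosomal protein and interferon-stimulated genes, differed between arms was not tested as a whole. The test of the difference between arms called 354 genes (2.56% of the genes tested), 134 with a more positive and 220 with a more negative shift with Ad-Cre. This count rested on single pairs. It fell to 1 without either library of EV with Ad-GFP, of MT486 with Ad-GFP or of DMT with Ad-Cre, to between 2 and 8 without a library of MT194 with Ad-GFP, to between 73 and 177 without the Ad-Cre pair of EV, MT194 or MT486, and it rose to 1409 without the WT pair with Ad-Cre.

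Genes of cell division stood out in that comparison. Of 35 G2/M and mitosis genes tested, 21 passed the test of the difference between arms, against 2.56% of all genes. So did 10 of 40 genes of G1/S and DNA replication and 6 of 25 sterol genes. The G2/M genes had a median shift of 0.17 with Ad-GFP, with 2 called higher and 0 lower. With Ad-Cre their median shift was -0.62, with 25 called lower and 0 higher. Of all 13805 genes, 2279 were called higher and 843 lower with Ad-GFP, and 2430 higher and 664 lower with Ad-Cre. Aurkb, which encodes a kinase of the mitotic spindle checkpoint, had 0.17 with Ad-GFP and -0.56 with Ad-Cre, a difference of -0.73 (SE 0.14, adjusted p = 0.0231, edgeR quasi-likelihood test, Benjamini-Hochberg). Cdc20, an activator of the anaphase-promoting complex, had 0.18 and -0.63. Aurkb and Cdc20 were chosen after their values were seen. The count of 21 lay between 0 and 35 when single libraries were left out, was 35 with DESeq2 and was 5 without a filter on low counts. The G1/S count likewise lay between 0 and 39 and was 24 with DESeq2, and the sterol count lay between 0 and 16 and was 9 with DESeq2.

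The values of these genes are also given by construct. The median G2/M difference between experiments with Ad-Cre was -0.84 in EV, -0.91 in MT194, -0.52 in MT486 and -0.91 in DMT, but 0.03 in WT, and with Ad-GFP the medians lay between -0.11 and 0.39. Set out as Ad-Cre minus Ad-GFP, the median log2 difference of the G2/M genes in EV was -0.27 in experiment 1 and -1.46 in experiment 2. It was 0.43 and then -0.67 in MT194, 0.86 and then -0.05 in MT486, and 0.37 and then -0.40 in DMT. It thus fell in all 3 mutants, in MT486 to a value near 0. In WT it was 0.68 in both experiments. The summed level of the list with Ad-Cre was 1605 and 1000 CPM in EV, 3366 and 1928 CPM in MT194, 3596 and 2702 CPM in MT486, 2886 and 1674 CPM in DMT, and 3042 and 3364 CPM in WT. Each of these values came from single libraries. In the test of whether a gene's shift, averaged over both viruses, differed between the 5 constructs, 0 of the 35 genes passed (adjusted p = 0.98 for Aurkb and for Cdc20, edgeR quasi-likelihood test, Benjamini-Hochberg), and a difference between constructs with Ad-Cre alone was not tested.

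Of the 5 genes with the smallest p for the difference between arms, 2 encode proteins of the mitotic spindle. Npr3, the clearance receptor for natriuretic peptides, was at -0.15 with Ad-GFP and 1.15 with Ad-Cre (adjusted p = 0.00117, edgeR quasi-likelihood test, Benjamini-Hochberg). Fhl1, a LIM-domain protein, had -0.48 and 0.05, Ston1, an endocytic adaptor, -0.53 and -0.12, Wdr62, a spindle pole protein, 0.46 and -0.24, and Kifc5b, a kinesin, 0.75 and -0.11. The effect of Cre itself, averaged over constructs, was called for 2299 genes without a term for the experiment (16.7% of the genes tested) and for 2536 with it, of which 2284 were shared.

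Properties of the libraries moved with the experiment. Reads assigned to no gene made up a median of 14.2% in experiment 1 and 18.0% in experiment 2 and were higher in 9 of 10 pairs, the DMT pair with Ad-Cre being the exception at 15.8% and 15.6% (exact permutation test over the pairs, two-sided, p = 0.00391, adjusted over 7 measures 0.00456). The share of the 10 most abundant genes rose from 5.66% to 6.89% and was higher in 10 of 10 pairs (p = 0.00195 in the exact test, the smallest that 10 pairs allow). Total reads on genes were 22805367 in the median in experiment 2 and higher in 8 of 10 pairs (p = 0.0254 in the exact test). Across 13703 genes with a transcript in the annotation, the log2 fold change had a Spearman correlation of 0.121 with transcript length and 0.147 with GC content, a description over genes that are not independent. By length, the medians of 5 equal bins of genes, from the shortest to the longest, were -0.12, -0.06, -0.04, 0.003 and 0.07. With an offset for GC content and length in each library, 1864 genes were called higher and 704 lower, and the medians of the unfolded protein response, matrix, lysosome and ribosome lists were 0.59, 0.50, 0.50 and -0.35. The part of RNA quality, of nuclear RNA and of intron reads in the shift was not tested.

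The libraries were also examined for other cell types, and in such bulk samples fewer cells of a type and less RNA per cell cannot be told apart. The fibroblast list had 10 of 16 tested markers called higher (62.5%, against 19.0% of all genes), 0 lower and a median of 0.61. Its most abundant gene was Fn1, which was also the most abundant gene of the collagen and matrix list. Col1a1 too was in both lists, so their counts are not independent. In 10 of 10 pairs 9 markers were higher and 4 lower, and 1 was called lower in each arm. Vim, vimentin, had -0.23, and the summed reads of Twist1, Twist2 and Prrx1 were lower in experiment 2. Thy1, another fibroblast marker, held at most 3 reads in a library. Of 14 macrophage markers, 6 were tested and 2 called higher (Cd68 and Lyz2, or 33.3%), and the summed median of 340 CPM in experiment 1 and 403 CPM in experiment 2 was mostly Cd14, at 336 CPM. Tyrobp held 0 reads in all 20 libraries, and Ptprc and Adgre1, defining markers of leukocytes and macrophages, held at most 3 reads in any. Endothelial markers summed to 9.20 and 12.1 CPM, with 3 of 6 tested called higher, also against 19.0% of all genes, and Pecam1 held at most 7 reads and Cdh5 at most 3. Epithelial markers summed to 4.63 and 4.26 CPM, skeletal muscle markers to 1.64 and 1.605 CPM and neural markers to 13.4 and 13.6 CPM, with 1 call among them, Tnnc2 lower. Epcam held at most 1 read, and Myod1 and Olig2 held 0. Adipocyte markers summed to 190.4 and 177 CPM, mostly Fabp4 and Plin4, with Pparg called lower at -0.54 and Adipoq at no more than 3 reads.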

How the data were processed

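Poly(A)-selected libraries were sequenced as single reads of 50 bases. Per the labels and the study's methods, the authors aligned reads to mm10 with Bowtie2 (unspliced alignment, so reads that span introns are lost), dropped reads of low mapping quality and deposited raw HTSeq counts for 24421 genes per library. Tool versions and the strand setting of the counting are not given in the sources used here.

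Rows that name no gene were left out of library sizes and are reported as shares. Genes were filtered with filterByExpr (13805 left) and scaled by TMM, and edgeR 4.0.16 (R 4.3.3) fitted 10 groups plus an experiment term by robust quasi-likelihood, with p-values adjusted over all genes tested. Interactions with virus and construct had separate fits. Pair differences used log2 CPM with a prior count of 2. DESeq2 1.42.0, other scalings and filters, and offsets for GC content and length (GENCODE M21) were alternatives. The fits were tested on simulated counts.

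The labels number replicates but do not say that a number marks the same experiment in every group. Deviations of same-numbered libraries from group means correlated over genes in 45 of 45 pairs of groups (r from 0.420 to 0.730), so numbers were taken as experiments. No replicate pair agreed within counting noise. Leaving out 1 library of a pair removes that pair's information on the shift. As each experiment was 1 occasion, technical and biological parts of the shift cannot be told apart.

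Named genes were the NELF subunits, the 12 largest called changes each way with a mean of 5 CPM or more and the same direction in 10 of 10 pairs (Gm and Rik gene models left out), the 3 largest called per list with 3 or more calls, the 5 smallest p of each interaction, and Acta2, Cdkn1a, Fasn and Actb. The comparison, lists and families were chosen with earlier results of these data known.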

Additional observations from a re-analysis of the deposited data

Results flagged for a closer look

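In 5 of 144 sets of 10 pair differences examined (library measures, list medians and named genes), the highest or lowest pair lay apart from the rest by Dixon's criterion, and chance flags about 1 in 20. The difference in reads on genes was 11110858 in the DMT pair with Ad-GFP, against a median of 2224682 over the pairs. The hypoxia and glycolysis list had a median log2 difference of 0.12 in the DMT pair with Ad-Cre, against a median of -0.14. Acta2 had 0.81 in the MT486 pair with Ad-Cre (median 0.08), Cx3cl1 1.43 in the MT194 pair with Ad-Cre (median 0.69) and Malat1 1.61 in the WT pair with Ad-Cre (median 0.91).

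Of the 101 genes named by rule, 8 had a shift between experiments that differed between viruses in edgeR's test of the difference itself, 5 of them because the rule chose them for it. Given as the shift with Ad-Cre minus that with Ad-GFP on the log2 scale, the values were 1.30 for Npr3, 0.86 for Bmp4, 0.61 for Ifit1, 0.53 for Fhl1, 0.45 for Vldlr, 0.41 for Ston1, -0.70 for Wdr62 and -0.86 for Kifc5b. The count of such genes over all genes depended on single pairs, as given with the comparison of the viruses.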

How the results depend on the processing

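The 3181 genes called between experiments became 1931 where only genes averaging 10 CPM or more were kept, 9867 with no size threshold and 151 with a log2 threshold of 1, and stayed within 1.5 times under the other alternatives run (DESeq2 3107, with 3070 genes shared, size factors 3173, no filter 3260, no group term 2781, GC and length offsets 2568, the WT construct left out 3670). Leaving out single libraries gave 3009 to 3508 calls for all pairs, 2855 to 3640 with Ad-GFP, 2578 to 3655 with Ad-Cre, 1 to 1409 for the virus interaction, 0 to 0 for the construct interaction and 2149 to 2417 for the Cre effect. DESeq2 called 662 genes for the virus interaction, and the cause was not tested. The replicate block (the experiment as a term) lowered the biological coefficient of variation to 0.0877 and changed no count of Cre calls by over 1.5 times. With GC and length offsets the share of calls that were higher went from 82.5% to 72.6%, and with Ad-GFP from 73.0% to 60.2%. That share was 48.8% with no size threshold and 96.0% with a log2 threshold of 1. Of 88 named genes that were called, 34 lost the call under at least 1 alternative (79 of 2978 values) and 0 reversed. Reversals fell on genes without a call. With the Ad-GFP libraries alone Acta2 was at -0.045 and Npr3 at -0.14. With the Ad-Cre libraries alone Nelfb was at 0.015, Fhl1 at 0.054, Kifc5b at -0.11 and Wdr62 at -0.24, and with GC and length offsets Wdr62 was at -0.068. List medians moved by over 1 SD of the pairs in 8 of 895 values. Libraries held 17969149 reads or more on genes, and the effect of depth was not tested.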
